A study of Mus musculus with 4 samples.

Results

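The genes described here encode insulin-like growth factor 1 (*Igf1*), its receptor (*Igf1r*) and 6 of the secreted proteins that bind it (*Igfbp2*, *Igfbp3*, *Igfbp4*, *Igfbp5*, *Igfbp6* and *Igfbp7*). They were taken as a fixed list of 8 from the 27998 genes of the deposited matrices, and their unique molecular identifiers (UMIs, each standing for 1 captured RNA molecule) were followed through every class of cell in 4 single-cell libraries. The libraries came from hindlimb satellite cells sorted as ITGA7+/VCAM+/Lin-, the lineage gate removing cells with Cd11b, Sca1, Cd45 or Cd31. 2 libraries were from models of Duchenne muscular dystrophy, which carry the same *Dmd* mutation on different backgrounds, namely C57BL/10ScSn-*Dmd*mdx (*mdx*, 11 weeks) and D2.B10-*Dmd*mdx (D2-*mdx*, 14 weeks). The other 2 were from animals without the mutation, C57BL/10ScSn (B10, 15 weeks) for the first model and DBA/2 (DBA, 13 weeks) for the second. Each strain was 1 library made from 2 pooled mice, so there were no replicates, no test between strains was possible, and strain, age and library cannot be told apart.

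IGF1 is a secreted growth factor that binds the receptor tyrosine kinase IGF1R and, through insulin receptor substrates, PI3-kinase and AKT, raises protein synthesis and restrains FoxO transcription factors. In muscle it is known for supporting myoblast proliferation, differentiation and fibre growth. The IGF binding proteins hold IGFs outside the cell, where they can withhold the ligand from its receptor or carry it there, and proteases that cut them set the ligand free. IGFBP7 binds IGFs only weakly and is best known as a matrix-associated protein of blood vessels.

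The 8 genes lie on 6 mouse chromosomes (GRCm38, GENCODE M21). *Igf1* is at chr10:87858265-87937042 and *Igf1r* at chr7:67952827-68233668, both on the plus strand. *Igfbp2* (chr1:72824503-72852474, plus) and *Igfbp5* (chr1:72857932-72874884, minus) are neighbours with 5457 bases between their ends. *Igfbp3* is at chr11:7206086-7213923 on the minus strand and *Igfbp4* at chr11:99041244-99054392 on the plus strand. *Igfbp6* is at chr15:102144362-102149511 (plus) and *Igfbp7* at chr5:77349240-77408041 (minus). Each library counted reads at the 3′ ends of transcripts, so the values carry no information on which start site was used.

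The 250 bases before the RefSeq start (GRCm38.p6) are printed for the genes whose level differed most between the models and their controls, *Igf1*, *Igfbp3* and *Igfbp6*, and for *Igfbp5*. They are written 5′ to 3′ on the strand of the gene, with capitals for a match, on either strand, to the TATA box TATAAA, the E-box CANNTG bound by basic helix-loop-helix factors such as MyoD, the AP-1-like TGANTCA or the forkhead site GTAAACA.
Igf1, chr10:87860861-87861110, plus strand, inside the GENCODE gene: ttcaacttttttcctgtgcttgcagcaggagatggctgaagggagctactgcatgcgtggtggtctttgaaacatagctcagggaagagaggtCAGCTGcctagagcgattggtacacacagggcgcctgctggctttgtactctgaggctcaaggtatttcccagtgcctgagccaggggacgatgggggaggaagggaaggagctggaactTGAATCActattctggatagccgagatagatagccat
Igfbp3, chr11:7213924-7214173, minus strand: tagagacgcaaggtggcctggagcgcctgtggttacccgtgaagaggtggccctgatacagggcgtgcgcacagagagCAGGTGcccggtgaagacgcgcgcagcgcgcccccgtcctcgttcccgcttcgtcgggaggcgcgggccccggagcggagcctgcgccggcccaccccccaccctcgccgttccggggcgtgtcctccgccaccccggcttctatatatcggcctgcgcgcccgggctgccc
Igfbp5, chr1:72874866-72875115, minus strand: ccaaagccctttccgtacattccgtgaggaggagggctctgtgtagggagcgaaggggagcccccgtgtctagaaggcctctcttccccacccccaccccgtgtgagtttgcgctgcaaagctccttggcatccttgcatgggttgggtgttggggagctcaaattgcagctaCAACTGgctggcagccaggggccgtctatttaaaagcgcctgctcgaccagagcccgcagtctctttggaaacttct
Igfbp6, chr15:102143936-102144185, plus strand: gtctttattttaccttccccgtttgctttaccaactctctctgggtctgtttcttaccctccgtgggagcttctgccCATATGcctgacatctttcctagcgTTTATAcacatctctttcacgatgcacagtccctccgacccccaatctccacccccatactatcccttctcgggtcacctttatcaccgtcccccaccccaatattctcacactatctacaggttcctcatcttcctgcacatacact
All 4 windows held 1 E-box, a motif found in 66.2% of 32817 RefSeq promoter windows of this length. The *Igf1* window also held TGAATCA, of the form TGANTCA found in 6.75% of windows. TATAAA, found in 12.4% of windows, was present on the opposite strand in that of *Igfbp6* and in none of the other 3. GTAAACA, found in 3.16% of windows, was in none of the 4. The windows of *Igfbp3* and *Igfbp6* differed in base composition, with 32 CpG and 73.2% G+C for *Igfbp3* against 7 CpG and 49.6% for *Igfbp6* (medians over all windows 6 CpG and 52.4%). A match is a run of letters and not a measured binding site, and no match overlapped another in these windows.

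After filtering, 4581 cells of B10 and 6313 of *mdx*, and 3279 of DBA and 5756 of D2-*mdx* remained, with median depths of 6666 to 10434 UMIs per cell; any pair of libraries had 3 to 8 cell barcodes in common. Clusters were named from marker genes, with the 8 genes left out of the clustering. Myogenic cells numbered 4418, 4818, 2701 and 4181 in B10, *mdx*, DBA and D2-*mdx*, and held *Pax7*-positive muscle stem cell-like (MuSC-like) cells, a DMD-enriched-like cluster with *Postn* and collagen genes, cycling, differentiating and interferon-responsive (immunomyoblast-like) cells, and a cluster led by *Esm1* and *Fosl1* that was left unnamed. The unnamed cluster scored highest for the cycling markers (0.717), below the 1 needed for a name. At the study's clustering resolution of 0.2, 1 cycling progenitor-like cluster had *Top2a*, *Esm1* and *Fosl1* among its leading genes. It held 102, 372, 64 and 456 cells of B10, *mdx*, DBA and D2-*mdx*. MuSC-like cells made up 90.6% of the cells of B10 and 77.6% of DBA but 51.0% of *mdx* and 50.6% of D2-*mdx*. *Dmd* itself was at 324 UMIs per 1000000 UMIs of the summed cells (CPM) in the myogenic cells of B10 and 287 in those of DBA, and lower in the models, 120 in *mdx* and 94.3 in D2-*mdx*. Intervals given with levels and ratios are exact 95% Poisson, binomial or conditional intervals that cover counting error only, and fewer cells of a type cannot be told from less RNA per cell where all myogenic cells are summed.

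In the myogenic cells of both models *Igf1* was lower and *Igfbp3* and *Igfbp6* were higher than in the matched control, each by more than 2-fold. *Igfbp4* and *Igfbp5* were also lower in both models, *Igfbp5* by more than 2-fold in *mdx* over B10 and *Igfbp4* in D2-*mdx* over DBA, and *Igf1r* was lower by less than 2-fold. For the counts and medians, a ratio was read only for genes that reached 10 CPM in a library of the pair. In *mdx* over B10 7 of the 8 genes did so and 4 were past 2-fold, 2 higher and 2 lower, where 4.67% of 8476 such genes were higher and 5.2% lower. In D2-*mdx* over DBA 7 of the 8 did so and 5 were past 2-fold, 3 higher (*Igfbp3*, *Igfbp6* and *Igfbp7*) and 2 lower (*Igf1* and *Igfbp4*), where 5.82% of 8501 genes were higher and 5.86% lower. Between the models, D2-*mdx* over *mdx*, 0 of 7 were past 2-fold, where 1.99% of 8177 genes were higher and 1.54% lower. Between the controls, DBA over B10, 3 of 5 were past 2-fold (*Igf1* and *Igfbp4* higher, *Igfbp7* lower), where 1.76% of 8344 genes were higher and 1.79% lower. *Igfbp3* and *Igfbp6* reached 10 CPM in the models alone, so a ratio past 2-fold was partly set by that minimum, and the counts are descriptions. The median log2 ratio of the members read was -0.38, -0.52, 0.15 and -0.21 in these 4 comparisons, against -0.04, -0.07, -0.02 and 0.01 over all genes read. *Igfbp2* was under 10 CPM in every library, and ratios given for genes under that minimum are outside these counts. The comparisons share libraries, so their values are set side by side and are not independent of each other.

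**Figure D1:**
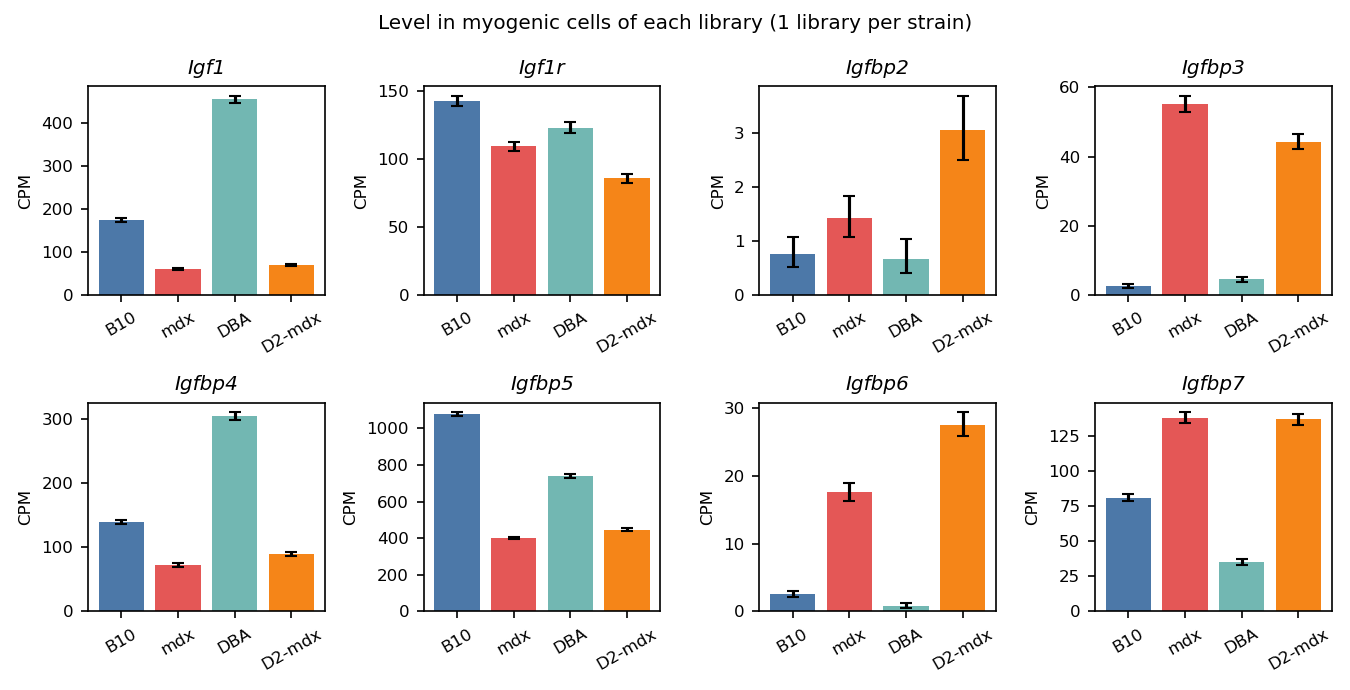
Level of each of the 8 genes (CPM, bars from 0, each panel with its own scale) in the summed myogenic cells of the 4 libraries, 1 library per strain, with exact 95% Poisson intervals as error bars. *Igf1* runs from 60.2 CPM in *mdx* to 455 in DBA, while *Igfbp3* is at 55.2 and 44.3 CPM in the models and at most 4.48 in the controls.

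*Igf1*, the ligand, was at 174 CPM in the myogenic cells of B10 (95% interval 170 to 179, 6956 UMIs) and 60.2 in *mdx* (57.8 to 62.6, 2429 UMIs), and 455 in DBA (447 to 462, 13706 UMIs) and 69.5 in D2-*mdx* (66.8 to 72.4, 2424 UMIs). The controls were both above the models, no 2 intervals overlapped, and the controls lay much further apart than the models. Log2 ratios were -1.53 (-1.60 to -1.47) on the B10 background and -2.71 (-2.77 to -2.65) on the DBA background. DBA over B10 was 1.38 (1.34 to 1.42), and D2-*mdx* over *mdx* was 0.21 (0.13 to 0.29). Within MuSC-like cells alone the levels were 174, 63.0, 464 and 97.7 CPM in B10, *mdx*, DBA and D2-*mdx*, with log2 ratios of -1.47 and -2.25, so the lower level was present within that class and not only in the sum over myogenic cells.

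*Igf1* was also found in fewer cells of the models. With every cell thinned to 3000 UMIs, 31.6% of 4379 myogenic cells of B10 and 11.7% of 4818 of *mdx*, and 62.8% of 2701 of DBA and 16.0% of 4181 of D2-*mdx* had at least 1 *Igf1* UMI; 39 cells of B10 were too shallow and were left out. Without thinning the shares were 51.4%, 20.9%, 88.3% and 26.3%. In pericyte-like cells of the same libraries, a class with little *Igf1*, the thinned shares were 5.26%, 1.31%, 7.44% and 5.73%; the median depth before thinning was 10634, 7984.5, 11076 and 6870 UMIs in those cells and 8424, 6845, 10294 and 6474 in myogenic cells. Every myogenic share lay above the pericyte-like one of its own library, and among the thinned myogenic shares the 4 exact intervals did not overlap. These intervals take the cells of a library as separate draws and do not cover differences between mice or libraries.

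In *mdx* and D2-*mdx* the level of *Igf1* differed between classes of myogenic cell. In the unnamed *Esm1*/*Fosl1* cluster it was 203 CPM in B10 and 13.7 in *mdx*, and 378 in DBA and 8.14 in D2-*mdx*, log2 ratios of -3.89 (-4.42 to -3.39) and -5.54 (-6.27 to -4.89). Cycling progenitor-like cells of the models were likewise low, at 14.7 CPM in *mdx* (125 cells) and 12.3 in D2-*mdx* (266 cells), while the controls had only 3 and 12 cells in this class as cut here. The DMD-enriched-like cells, at 69.2 CPM in *mdx* (915 cells) and 69.8 in D2-*mdx* (579 cells), differed little from all myogenic cells of their library. Differentiating myocyte-like cells held 168 CPM in B10 and 77.9 in *mdx*, and 259 in DBA and 25.8 in D2-*mdx*.

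A small MuSC-like cluster led by *Dlk1*, an imprinted regulator of muscle growth, and *Hhip*, a binder and target of hedgehog ligands, did not show this order, and was singled out after its values were seen. It held 90 cells in B10 and 38 in *mdx*, and 84 in DBA and 101 in D2-*mdx*, and its *Igf1* level was 325, 663, 462 and 529 CPM. The models were not below their controls there, with log2 ratios of 1.03 (0.75 to 1.31) on the B10 background and 0.20 (-0.02 to 0.41) on the DBA background. In the 3 largest MuSC-like clusters the same ratios ran from -1.23 to -2.08 and from -2.27 to -2.61. The *Idi1*/*Msmo1* cluster, also MuSC-like, gave -0.83 (-1.38 to -0.31) and -2.76 (-3.24 to -2.31). It had 53 cells in *mdx*, 1 of which gave 13 of 35 UMIs. The *mdx* value of the *Dlk1*/*Hhip* cluster rests on 169 UMIs, of which 1 cell gave 45 (26.6%) and 10 cells gave 78.7%. Its log2 ratio to B10 was 0.72 when the 8 genes were kept among the clustering features. The thinned share of cells with an *Igf1* UMI, to which a rich cell adds no more than any other, was 44.4%, 55.3%, 59.5% and 62.4% in B10, *mdx*, DBA and D2-*mdx*. For *mdx* that is 21 of 38 cells (exact interval 38.3% to 71.4%). MuSC-like is the default name among myogenic clusters, and the *Dlk1*/*Hhip* cluster scored 0.276 for its markers. At a clustering resolution of 0.2 the cluster led by the same genes scored 0.153 for the differentiating markers and 0.145 for the MuSC-like ones.

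**Figure D2:**
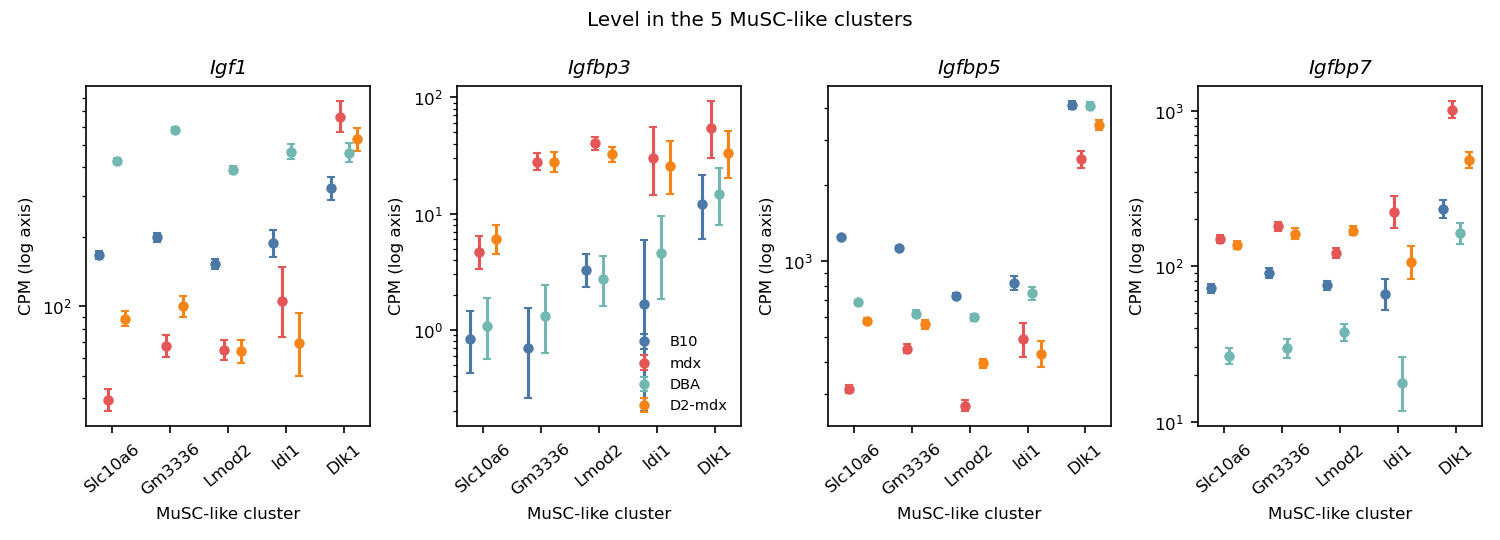
Level of *Igf1*, *Igfbp3*, *Igfbp5* and *Igfbp7* (CPM, log axis) in the 5 MuSC-like clusters, each named by a leading gene, with 1 point per library and exact 95% Poisson intervals. In the *Dlk1*-led cluster *Igf1* is at 325 to 663 CPM in all 4 libraries and *Igfbp5* is at 2511 to 4114 CPM, while in the other clusters the models lie below their controls for *Igf1*.

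*Igf1r*, the receptor tyrosine kinase through which IGF1 signals, was at 142 CPM in the myogenic cells of B10 (139 to 146) and 109 in *mdx* (106 to 112), and 123 in DBA (119 to 127) and 85.6 in D2-*mdx* (82.5 to 88.7). Each model was below its control and the intervals did not overlap, but the log2 ratios were small, -0.38 (-0.44 to -0.33) and -0.52 (-0.59 to -0.45). Within MuSC-like cells they were -0.18 and -0.23. In the *Dlk1*/*Hhip* cluster they were -0.02 (-0.53 to 0.47) and 0.70 (0.32 to 1.07), so D2-*mdx* was above DBA there. The *Idi1*/*Msmo1* cluster gave 0.35 (-0.18 to 0.86) and 0.03 (-0.42 to 0.46). The *Esm1*/*Fosl1* cluster gave 0.04 (-0.31 to 0.40) and -0.83 (-1.25 to -0.39), and immunomyoblast-like cells -0.17 (-0.57 to 0.22) and 0.07 (-0.86 to 1.06). Cycling progenitor-like cells were at 36.9 CPM in *mdx* and 22.1 in D2-*mdx*, below every other myogenic class of these libraries. In pericyte-like cells *Igf1r* was at 126, 82.8, 145 and 70.3 CPM in B10, *mdx*, DBA and D2-*mdx*, log2 ratios of -0.60 (-0.89 to -0.31) and -1.05 (-1.21 to -0.89), so a lower level in the models was not a feature of myogenic cells alone.

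*Igfbp5*, a matrix-bound binding protein known from differentiating myoblasts, was at 1077 CPM in the myogenic cells of B10 (42967 UMIs) and 402 in *mdx* (16227), and 740 in DBA (22308) and 447 in D2-*mdx* (15589). The controls were above the models, the intervals of all 4 were apart, and the order of the controls was the reverse of that for *Igf1*. *mdx* over B10 had a log2 ratio of -1.42 (-1.45 to -1.40), and D2-*mdx* over DBA had -0.73 (-0.76 to -0.70). In MuSC-like cells alone it was -1.61 and -0.32, the levels being 1108, 364, 769 and 615 CPM. The level in D2-*mdx* was thus nearer to its control within MuSC-like cells than over all myogenic cells.

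By class, *Igfbp5* was highest among myogenic cells in the *Dlk1*/*Hhip* cluster, at 4114 CPM in B10 and 2511 in *mdx*, and 4094 in DBA and 3439 in D2-*mdx*, and 93.1% to 95.2% of its thinned cells had a UMI in every library, with log2 ratios of -0.71 and -0.25 between models and controls. Differentiating myocyte-like cells were at the low end, with 149, 68.4, 109 and 80.6 CPM. Here the cells of *mdx* and D2-*mdx* were again below their controls, although the intervals of DBA and D2-*mdx* met. The *Esm1*/*Fosl1* cluster held 640 and 514 CPM in B10 and DBA and 152 and 117 in *mdx* and D2-*mdx*, log2 ratios of -2.07 and -2.14. Glial cell-like cells were lower in the models too, with 627, 72.2, 519 and 125 CPM in B10, *mdx*, DBA and D2-*mdx*, though B10 had 23 such cells and DBA 31.

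*Igfbp4*, a soluble binding protein that the protease PAPP-A cuts, was at 139 CPM in the myogenic cells of B10 (135 to 143) and 72.1 in *mdx* (69.5 to 74.7), and 303 in DBA (297 to 310) and 88.6 in D2-*mdx* (85.5 to 91.8). DBA stood above the other 3 libraries and the intervals of all 4 were apart, an order that matched that of *Igf1*. *mdx* over B10 was just inside 2-fold, with a log2 ratio of -0.95 (-1.01 to -0.88), D2-*mdx* over DBA was -1.78 (-1.84 to -1.72), and DBA over B10 was 1.12. Within MuSC-like cells the ratios were -0.60 and -1.43. Differentiating myocyte-like cells of B10 held 4 *Igfbp4* UMIs, 7.54 CPM, against 84.6 CPM in those of DBA, from 35 and 46 cells.

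*Igfbp3*, the main carrier of IGFs in blood and in tissues a secreted protein also known for effects apart from IGF, was at 2.48 CPM in the myogenic cells of B10 (2.02 to 3.02, 99 UMIs) and 4.48 in DBA (3.76 to 5.30, 135 UMIs). In *mdx* it was at 55.2 (52.9 to 57.5, 2227 UMIs) and in D2-*mdx* at 44.3 (42.1 to 46.6, 1545 UMIs). The controls were near the lower end of detection, both models were far above them, and the models were close to each other. Log2 ratios were 4.48 (4.18 to 4.78) on the B10 background and 3.31 (3.05 to 3.57) on the DBA background. Thinned to 3000 UMIs, 0.571%, 8.84%, 0.852% and 7.70% of myogenic cells of B10, *mdx*, DBA and D2-*mdx* had a UMI, so most cells of the models had none at this depth. In pericyte-like cells the share was 10.5%, 2.78%, 3.51% and 1.54%, so the models exceeded the pericyte-like share of their own library and the controls did not.

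The *Igfbp3* signal of the models sat mainly outside the MuSC-like cells. Differentiating myocyte-like cells held 123 CPM in *mdx* and 184 in D2-*mdx*, and 43.3 in B10 and 54.6 in DBA. The DMD-enriched-like cells held 106 and 86.2 CPM in the models. MuSC-like cells were at 22.3 and 19.4 CPM in *mdx* and D2-*mdx* and 1.88 and 2.20 in B10 and DBA, log2 ratios of 3.57 (3.20 to 3.96) and 3.14 (2.75 to 3.56). The difference was therefore present both within the stem cell class and in differentiating cells, where it was smaller, 1.5 (0.90 to 2.18) and 1.75 (1.29 to 2.26). The B10 value of the differentiating cells rests on 23 UMIs in 5 of 35 cells, and 1 cell gave 14 of them (60.9%). How far the smaller ratio of *mdx* over B10 rests on that cell was not tested. In pericyte-like cells the difference had the opposite direction, at 48.3, 11.3, 17.5 and 6.70 CPM in B10, *mdx*, DBA and D2-*mdx*, log2 ratios of -2.10 (-2.67 to -1.52) and -1.39 (-1.91 to -0.89).

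*Igfbp6*, which prefers IGF2 over IGF1, was at 2.53 CPM in the myogenic cells of B10 (101 UMIs) and 17.6 in *mdx* (710), and 0.83 in DBA (25) and 27.5 in D2-*mdx* (960). Both models were above both controls and no intervals overlapped. *mdx* over B10 had a log2 ratio of 2.80 (2.49 to 3.11), and D2-*mdx* over DBA had 5.05 (4.48 to 5.69). A single DMD-enriched-like cell of B10 gave 45 of the 101 UMIs, and with the richest cell of each library left out *mdx* over B10 was 3.61. In MuSC-like cells the levels were 1.47, 12.3, 0.829 and 13.9 CPM, log2 ratios of 3.06 and 4.07. Cycling progenitor-like cells were the highest myogenic class of both models, at 59.5 CPM in *mdx* (113 UMIs) and 80.9 in D2-*mdx* (363 UMIs), and held 0 UMIs in the 3 cells of B10 and 12 of DBA. Of thinned myogenic cells 0.365%, 3.92%, 0.333% and 4.69% had a UMI in B10, *mdx*, DBA and D2-*mdx*, against 1.05%, 0.817%, 0.413% and 0.819% of pericyte-like cells. The models were above the pericyte-like share. In the controls that share rests on 1 of 95 cells in B10 (exact interval 0.03% to 5.73%) and 2 of 484 in DBA (0.05% to 1.48%). These intervals held the myogenic shares, so the controls cannot be ordered.

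*Igfbp7*, the vessel-associated protein that binds IGFs weakly, was at 81.1 CPM in the myogenic cells of B10 (78.3 to 83.9) and 138 in *mdx* (134 to 142), and 35.4 in DBA (33.3 to 37.6) and 137 in D2-*mdx* (133 to 141). The models had overlapping intervals and were above the controls, which differed from each other. The controls gave -1.20 (-1.30 to -1.10) on the log2 scale for DBA over B10, while *mdx* stood 0.77 (0.70 to 0.83) above B10 and D2-*mdx* 1.95 (1.85 to 2.05) above DBA. Within MuSC-like cells it was 0.99 (0.91 to 1.06) and 2.24 (2.13 to 2.34) for the models over their controls. The *Dlk1*/*Hhip* cluster was the highest MuSC-like cluster in all 4 libraries, with 234, 1012, 162 and 484 CPM in B10, *mdx*, DBA and D2-*mdx* and log2 ratios of 2.12 (1.85 to 2.38) and 1.58 (1.29 to 1.87). Its *mdx* value rests on 258 UMIs from 38 cells, of which 1 cell gave 74 (28.7%) and 10 cells gave 72.1%.

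*Igfbp2*, a binding protein prominent in fetal tissues, was at 0.752 CPM in the myogenic cells of B10 (30 UMIs) and 1.41 in *mdx* (57), and 0.664 in DBA (20) and 3.04 in D2-*mdx* (106). D2-*mdx* was above the other 3, whose levels were all under 2 CPM. The D2-*mdx* value came largely from few cells, since the *Dlk1*/*Hhip* cluster gave 56 of the 106 UMIs at 93.5 CPM (70.6 to 121), in 10 of 101 cells. The same cluster was at 4.39, 3.92 and 16.8 CPM in B10, *mdx* and DBA, from 4, 1 and 16 UMIs. Cycling progenitor-like cells held 9.48 CPM in *mdx* and 7.57 in D2-*mdx*. In MuSC-like cells *mdx* had only 7 UMIs (0.347 CPM), and B10 had 28, in 10 of 4150 cells, 1 of which gave 11. There *mdx* over B10 was -1.14 (-2.58 to 0.09) in place of 0.91 (0.25 to 1.60) over all myogenic cells.

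**Figure D3:**
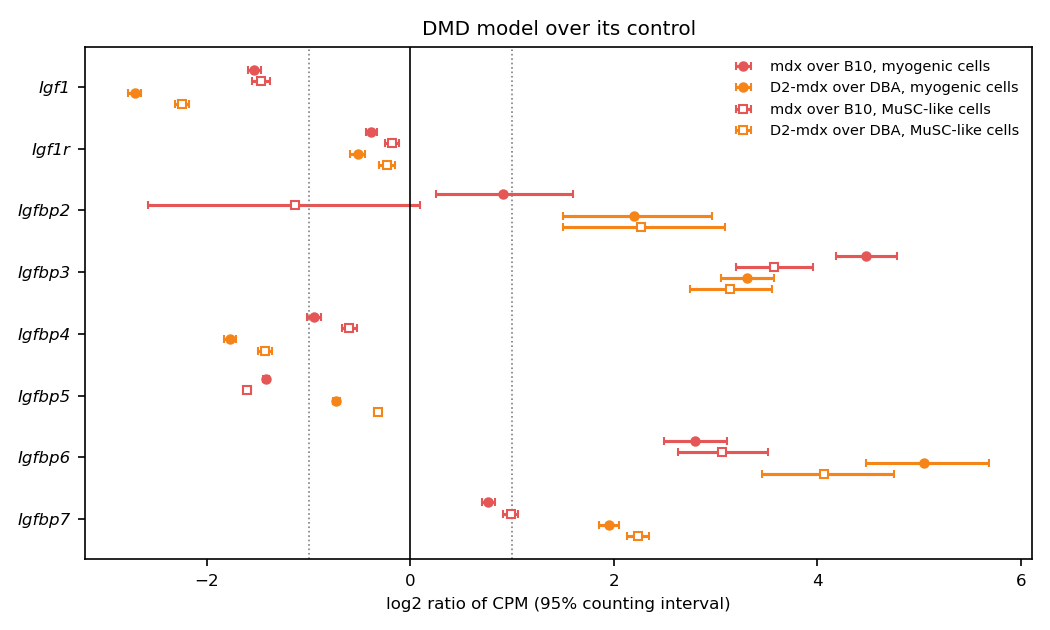
Log2 ratio of CPM of each gene in either model over its matched control, in all myogenic cells (filled circles) and in MuSC-like cells alone (open squares), with exact conditional 95% intervals; dotted lines mark 2-fold. *Igf1* lies left of -1 and *Igfbp3* and *Igfbp6* lie right of 2 in both comparisons and both sets of cells, while *Igf1r* lies between -0.52 and -0.18.

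Sorted libraries also held cells of other types that passed the gate, and *Igfbp4*, *Igfbp5*, *Igfbp6* and *Igfbp7* had higher levels in one of them than in any myogenic class. Pericyte-like cells (97, 612, 484 and 977 cells in B10, *mdx*, DBA and D2-*mdx*) expressed their defining markers *Rgs5* and *Pdgfrb* and held *Igfbp5* at 6733, 3844, 6723 and 4688 CPM. That is lower in both models, with log2 ratios of -0.81 (-0.85 to -0.77) and -0.52 (-0.54 to -0.50). *Igfbp7* was nearly level in these cells, at 4302, 4350, 4270 and 5012 CPM, and *Igfbp4* was at 717, 444, 496 and 521 CPM. *Igf1* was scarce, at 38.8, 5.94, 33.0 and 23.2 CPM, and lower in both models, with log2 ratios of -2.71 (-3.44 to -1.99) and -0.50 (-0.81 to -0.20), and vascular smooth muscle-like cells held 0 *Igf1* UMIs in all 4 libraries. In the pericyte-like cells of B10, 1 cell gave 18 of the 41 *Igf1* UMIs.

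Endothelial cell-like cells had *Igfbp7* at 6368 CPM in *mdx* (252 cells) and 7191 in D2-*mdx* (89 cells), and at 2977 and 2718 in the 14 and 8 such cells of B10 and DBA. They also held *Igfbp3*, at 101 CPM in *mdx* and 80.3 in D2-*mdx*, and at 16.6 in B10 (2 UMIs) and 107 in DBA (10 UMIs). Fibroblast- or tenocyte-like cells were few, 7, 29, 7 and 50 cells, and held *Igfbp6* at 8739, 1367, 2881 and 1592 CPM in B10, *mdx*, DBA and D2-*mdx*. Their *Igf1* was at 286, 585, 373 and 454 CPM, with neither model below its control. The control values rest on 24 UMIs in B10 and 36 in DBA, of which 1 cell gave 15 and 18. The interval of D2-*mdx* over DBA spanned 0 (-0.22 to 0.82). Endothelial cell-like cells had *Igf1* at 16.6, 50.1, 10.7 and 94.4 CPM in B10, *mdx*, DBA and D2-*mdx*, from 2 and 1 UMIs in the controls. In glial cell-like cells, by contrast, *Igf1* was at 145, 9.20, 301 and 18.2 CPM, log2 ratios of -3.97 (-4.80 to -3.16) and -4.05 (-4.64 to -3.49), from 23 and 31 cells in the controls. White blood cell-like cells, the class that holds macrophages, had *Igf1* at 192 CPM in *mdx* (110 cells), 224 in DBA (23 cells) and 85.6 in D2-*mdx* (162 cells). Schwann cell-like cells of D2-*mdx* held *Igfbp6* at 768 CPM, in 13 of 49 cells, 1 of which gave 31.7% of the UMIs.

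**Figure D4:**
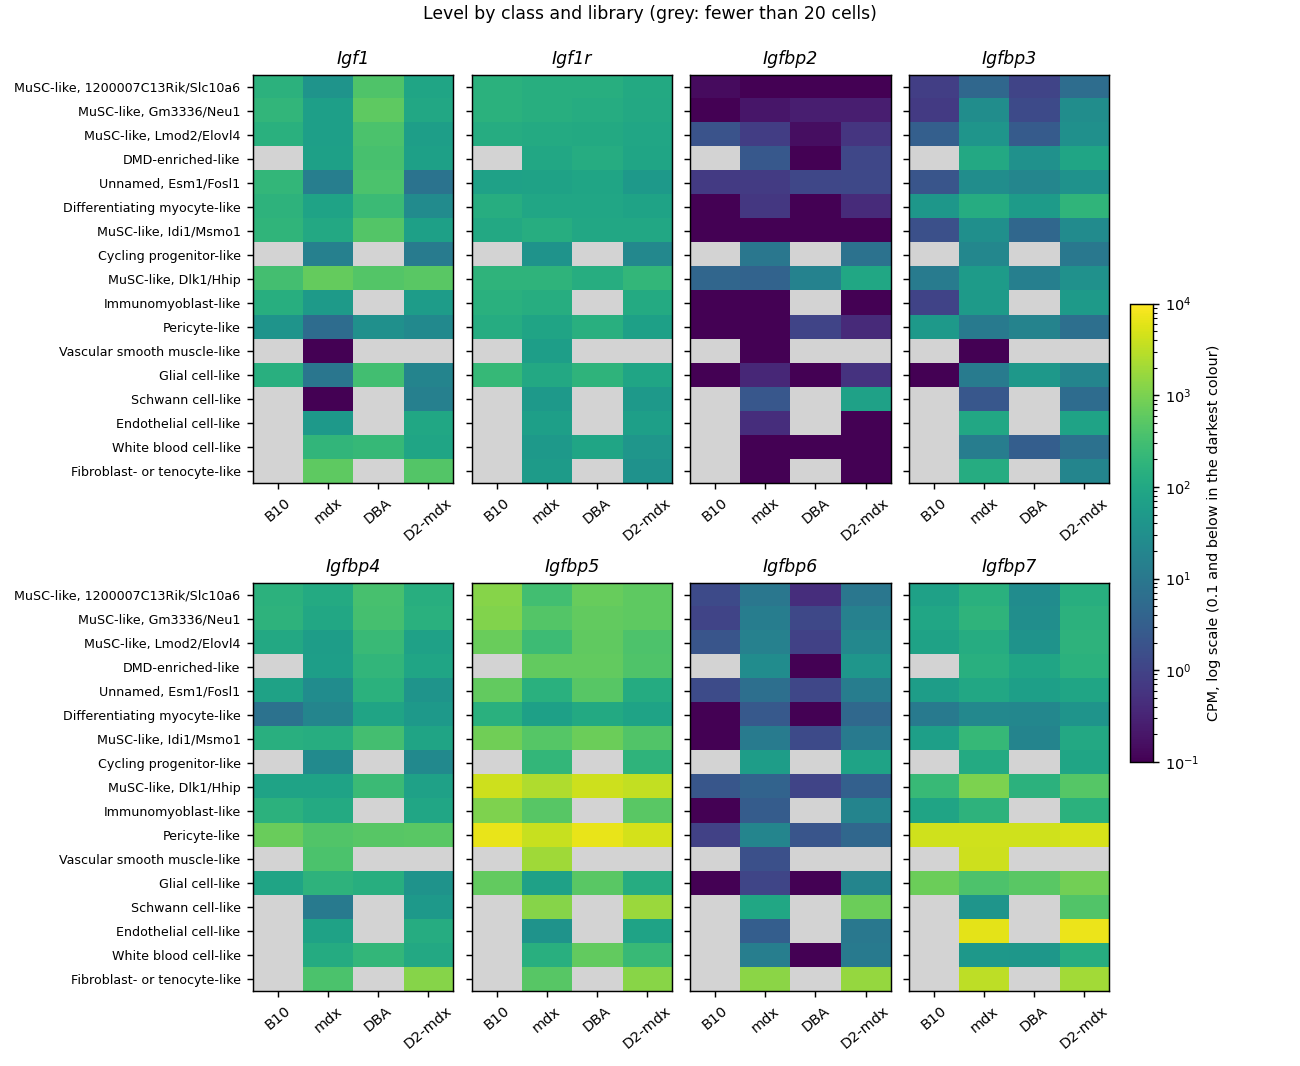
Level of each gene (CPM, colour on a log scale, values of 0.1 and below in the darkest colour) in each class of cell, rows, and library, columns; grey marks classes with fewer than 20 cells in a library. *Igfbp7* is at 4270 to 5012 CPM in the pericyte-like row and *Igf1* is lowest in the cycling and *Esm1*/*Fosl1* rows of *mdx* and D2-*mdx* among myogenic classes.

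The cells that supplied each RNA differed between libraries. MuSC-like cells gave 90.7% of all *Igf1* UMIs of B10 and 91.0% of DBA, but 42.5% of *mdx* and 56.3% of D2-*mdx*. In the models the other myogenic classes gave 38.7% and 20.2%, fibroblast- or tenocyte-like cells 6.39% and 9.09%, and white blood cell-like cells 6.89% and 5.21%. Pericyte-like and vascular smooth muscle-like cells together gave 14.5% of the *Igfbp5* UMIs of B10 and 54.2% of *mdx*, and 62.4% of DBA and 67.0% of D2-*mdx*. For *Igfbp5* B10 was thus the lowest, and it had 2.27% of its cells in these classes against 10.6% to 17.3% in the other 3 libraries. The same cells gave 55.2%, 53.0%, 93.7% and 74.0% of the *Igfbp7* UMIs, where B10 and *mdx* were close and DBA was the highest. *Igfbp6* came mostly from fibroblast- or tenocyte-like cells in the controls, 87.7% in each of B10 and DBA, and less so in the models, 33.8% and 43.4%. *Igfbp3* came mostly from myogenic cells outside the MuSC-like class in the models, 68.5% and 69.2%, against 19.5% and 27.2% in the controls. These shares depend on the sort and on which cells survived it, and are not shares of the muscle.

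**Figure D5:**
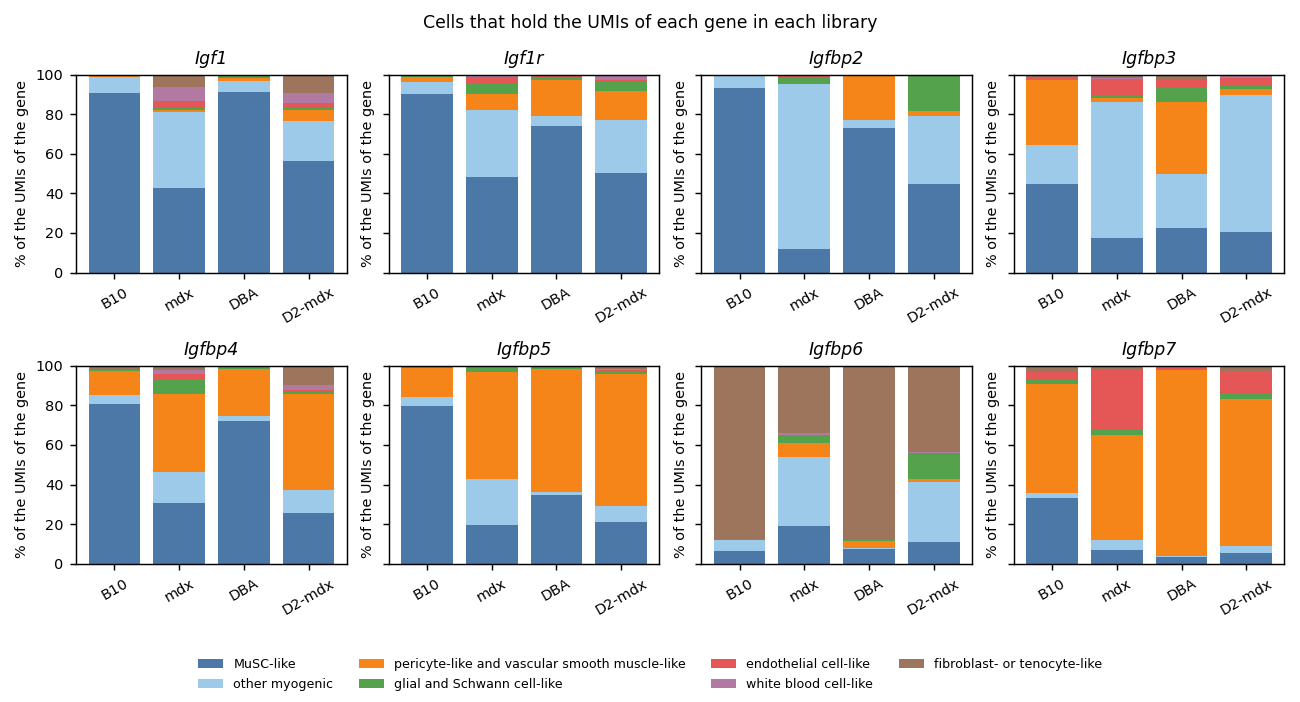
Share of the UMIs of each gene (% of the library's UMIs of that gene, stacked to 100) held by 7 groups of cells in each library. MuSC-like cells hold 90.7% and 91.0% of *Igf1* in the controls and 42.5% and 56.3% in the models, and pericyte-like and vascular smooth muscle-like cells hold 53.0% to 93.7% of *Igfbp7*.

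Levels of *Igfbp7* and *Igfbp6* in MuSC-like cells were set beside markers of a cell type rich in each, pericyte-like cells and fibroblast- or tenocyte-like cells. In the models *Igfbp7* was higher in endothelial cell-like cells (6368 CPM in *mdx* and 7191 in D2-*mdx*) than in pericyte-like cells (4350 and 5012). No quotient to endothelial cell-like cells is given. The summed level of 8 pericyte markers in MuSC-like cells was 1.34%, 0.86%, 1.15% and 0.97% of that in pericyte-like cells for B10, *mdx*, DBA and D2-*mdx*. For *Igfbp7* the same quotient was 1.89%, 3.70%, 0.80% and 3.22%, so it was above the markers' quotient in B10 and both models and below it in DBA. For *Igfbp6* in MuSC-like cells the quotient to fibroblast- or tenocyte-like cells was 0.02%, 0.90%, 0.03% and 0.87%, below that of the 8 fibroblast markers, 3.51%, 1.62%, 3.88% and 4.05%. Of the defining markers in MuSC-like cells, *Pdgfra* was at 0.05, 0.15, 0.04 and 0.00 CPM, *Dcn* at 3.54, 14.9, 5.51 and 59.9 and *Rgs5* at 10.5, 19.9, 21.2 and 38.4. *Dcn* and *Rgs5* were higher in each model than in its control, while the summed lists were lower, at 132, 93.2, 127 and 117 CPM for the pericyte list and 532, 322, 786 and 654 CPM for the fibroblast list in B10, *mdx*, DBA and D2-*mdx*. Most of each sum thus came from listed genes other than those named here. Whether MuSC-like cells express those genes themselves was not tested, so neither the sums nor their quotients measure RNA from other cells. The summed endothelial list was higher in the models, at 3.6, 12.5, 5.73 and 14.4 CPM. The part of any of these in the *Igfbp6* and *Igfbp7* results was not tested. Summed dissociation and immediate-early genes were at 38171, 44932, 32740 and 46566 CPM in MuSC-like cells, also higher in the models, and their part in the results was not tested.

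Fewer of the 8 genes were found per myogenic cell in the models. With cells thinned to 3000 UMIs the mean number detected was 1.85 in B10 and 1.39 in *mdx*, and 2.10 in DBA and 1.45 in D2-*mdx*. The share of cells with none was 8.81%, 22.9%, 6.48% and 21.5%, and the share with 3 or more was 25.5%, 15.8%, 36.1% and 17.6%. The *Esm1*/*Fosl1* cluster of the models had the highest shares with none among myogenic classes of 20 or more cells in these libraries, 51.2% in *mdx* and 46.8% in D2-*mdx*. In the *Dlk1*/*Hhip* cluster 38.9%, 65.8%, 57.1% and 68.3% of cells had 3 or more.

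The genes whose level was most like that of each member were taken over 44 sums of cells, each 1 class of 1 library with at least 50 cells, by Pearson's r among 12730 genes. These sums share libraries, depth and the classes' own marker genes, and the correlations are descriptions. *Igf1* was most like *Itpr2* (0.86), which encodes a calcium channel of the endoplasmic reticulum, *Lmo2* (0.82) and *Rps27* (0.81). *Igf1r* was most like *Kdm5a* (0.87), a histone demethylase gene, *Rbm39* (0.86) and *Airn* (0.85), and *Igfbp4* like *Thy1* (0.82). *Igfbp7* was most like *Sparcl1* (0.94), *Gng11* (0.93) and *Rras* (0.92), and *Igfbp5* like *Pkdcc* (0.88) and *Pde3a* (0.84). *Igfbp3* was most like *Ppic* (0.77), *Pde2a* (0.75) and *Cdkn1c* (0.73), and *Igfbp6* like *Prrx2* (0.77), *Pafah1b3* (0.76) and *Spp1* (0.76). *Igfbp2* had the lowest top value, 0.65 with *Barx2*. Among themselves *Igfbp4* and *Igfbp5* had r = 0.58, *Igf1* and *Igf1r* 0.44, *Igf1* and *Igfbp5* 0.15, and *Igf1r* and *Igfbp6* -0.64.

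Of 46 other genes of the pathway, 35 reached 10 CPM in *mdx* over B10, with 3 past 2-fold higher, 3 lower and 29 within 2-fold (over all genes 4.67% higher and 5.2% lower), and a median log2 ratio of -0.20. In D2-*mdx* over DBA 34 did so, with 0 higher, 2 lower and 32 within 2-fold (over all genes 5.82% and 5.86%), and a median of -0.28. *Igf2*, the other IGF ligand, was at 51.2 CPM in the myogenic cells of B10 and 192 in *mdx*, and 48.9 in DBA and 94.7 in D2-*mdx*. Both models were above both controls, with log2 ratios of 1.91 (1.84 to 1.98) and 0.95 (0.87 to 1.04), in the direction opposite to *Igf1*. In MuSC-like cells alone the ratios were 1.71 and 0.83. *Igf2r*, which takes up IGF2 for degradation, and *Insr*, the insulin receptor, were both within 2-fold, with *Igf2r* at -0.20 and -0.65 and *Insr* at -0.28 and -0.68.

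Among the genes that act on the binding proteins, *Htra1*, a secreted serine protease that can cut IGFBPs, was at 43.7 CPM in B10 and 16.0 in *mdx*, and 55.1 in DBA and 21.5 in D2-*mdx*. It was lower in both models, with log2 ratios of -1.45 and -1.36, and of -1.29 and -1.21 in MuSC-like cells. Of the 5 listed proteases and their regulators, 2 reached 10 CPM in myogenic cells in each comparison, with 0 past 2-fold higher, 1 lower and 1 within 2-fold. Over all genes 4.67% were higher and 5.2% lower in *mdx* over B10, and 5.82% and 5.86% in D2-*mdx* over DBA. In MuSC-like cells 3 reached 10 CPM in *mdx* over B10, with 1 past 2-fold higher, 1 lower and 1 within 2-fold. In D2-*mdx* over DBA 2 did so in those cells, with 0 higher, 1 lower and 1 within 2-fold. No share over all genes is given for MuSC-like cells, so their counts are descriptions. The other 3 binding-protein genes listed (*Igfbp1*, *Igfals* and *Igfbpl1*) did not reach 10 CPM in any library. Of 8 adaptor genes such as *Irs1* and *Grb2*, 7 reached 10 CPM and all 7 were within 2-fold in both comparisons. Of 18 genes of the PI3-kinase, AKT and mTOR cascade, 17 reached 10 CPM. *Pik3r1*, the regulatory subunit of PI3-kinase, was at 229, 90.8, 150 and 60.7 CPM in B10, *mdx*, DBA and D2-*mdx*, log2 ratios of -1.33 and -1.30. *Eif4ebp1*, a translation repressor that mTOR phosphorylates, was at 60.7, 134, 72.1 and 143 CPM, log2 ratios of 1.14 and 0.99. In MuSC-like cells these were within 2-fold, -0.79 and -0.82 for *Pik3r1* and 0.70 and 0.51 for *Eif4ebp1*.

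Of the FoxO genes and their targets, *Foxo1* was at 153, 73.1, 119 and 73.5 CPM in B10, *mdx*, DBA and D2-*mdx*, log2 ratios of -1.07 and -0.70, and -0.59 and -0.23 in MuSC-like cells. *Fbxo32*, the ubiquitin ligase atrogin-1 and a FoxO target, was at 13.2, 35.9, 17.5 and 21.7 CPM, log2 ratios of 1.45 (1.30 to 1.60) and 0.32 (0.15 to 0.48). It was thus higher in both models, and past 2-fold in *mdx* over B10. The levels are of RNA, and neither the proteins nor the activity of the receptor was measured here.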

How the data were processed

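Satellite cells of 4 strains were profiled by 10X single-cell RNA-seq (3′ chemistry, 1 library per strain, 2 pooled mice each). The deposited values were raw UMI counts per gene and barcode, which the authors made with Cell Ranger 3.0.1 against the mouse genome mm10, with replicates pooled before capture. Neither the gene annotation nor the cell calling behind the files is given in the sources used here. Depth was 43542853 to 75482888 UMIs per library, from 3539 to 9931 barcodes, of which B10 had 4278 with fewer than 500 genes.

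From these counts, barcodes were kept between the study's limits of 1000 and 5000 genes and up to its 8% limit on mitochondrial UMIs. The cells with the highest Scrublet doublet scores (scanpy 1.11.5) were then removed, 91 to 356 cells or 2.7% to 5.34% per library. Their number was fixed beforehand at a rate of 0.008 per 1000 cells. The percentages therefore follow the number of cells and are not a detected doublet rate. Libraries were integrated by canonical correlation in Seurat 5.3.0 (R 4.3.3) with 2000 variable features and 30 dimensions; 7 of the 8 genes were among the features and were removed. Clusters were cut at a resolution of 0.1 over the whole set and, among myogenic cells, of 0.4. The second was chosen after seeing the data, since at 0.2, the study's setting, the DMD-enriched-like and differentiating cells fell together once the 8 genes were left out. Clusters were named from the marker list with the highest mean level, standardized across clusters, among lists with at least 3 markers detected. A list other than the default needed a mean of at least 1. Where such a list led with at least 0.5 but less than 1 the cluster was left unnamed, and otherwise it took the default name. Among myogenic clusters the default was MuSC-like, and the clusters of that name scored 0.181 to 0.576. Classes rebuilt in this way may differ from those of the study.

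UMIs were summed per class and library and scaled to a total of 1000000 (CPM) over all genes of those cells. With 1 library per strain no test was run; Poisson, binomial (Clopper-Pearson) and conditional ratio intervals at 95% cover counting error only, and where a class had 0 UMIs the limit is 3 counts. The interval code was tested on simulated data. Genes with 10 CPM in a library of a pair and a ratio past 2-fold were counted. Shares of cells were taken after thinning each cell to 3000 UMIs. The text names the 8 genes and the genes most like each member. It also names pathway genes past 2-fold in the myogenic cells of a model over its control, with the receptors and the ligand *Igf2*. The genes and all lists were chosen with earlier results of these data known. Alternatives were other filters on cells and genes, other clusterings, TMM sizes (edgeR 4.0.16), DESeq2 1.42.0 size factors, other sets of cells and other thinning depths. Promoter windows came from the RefSeq table for GRCm38.p6, in which all 8 genes matched.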

Additional observations from a re-analysis of the deposited data

Results flagged for a closer look

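Among classes with at least 50 cells in all 4 libraries, *Igfbp4* in pericyte-like cells had log2 ratios of opposite sign on the 2 backgrounds, -0.69 (-0.81 to -0.57) for *mdx* over B10 (444 against 717 CPM) while D2-*mdx* (521 CPM) over DBA (496 CPM) gave 0.0713 (0.0011 to 0.142). The second is close to 0. The difference between the backgrounds was not tested, and the B10 value comes from 97 cells.

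The barcodes left out of the main comparisons for holding over 5000 genes carried more *Igfbp2* in the models than in the controls, with a log2 ratio of 3.77 for *mdx* over B10 (12.3 against 0.90 CPM, 107 against 1 UMI) and 1.89 for D2-*mdx* over DBA (7.76 against 2.09 CPM). In the same barcodes *Igfbp3* had a log2 ratio of 1.23 (25.3 against 10.8 CPM) and 1.43 (19.1 against 7.12 CPM). *Igf1* (-2.78 and -4.10), *Igf1r* (-1.92 and -2.13), *Igfbp4* (-0.55 and -2.67) and *Igfbp5* (-1.21 and -1.67) were lower in both models there, as in myogenic cells. *Igfbp6* was at -2.21 (60.0 against 278 CPM) in *mdx* over B10, opposite to its ratio in myogenic cells, and at 3.73 in D2-*mdx* over DBA. *Igfbp7* was at -0.16 and -0.86, opposite to myogenic cells in both comparisons. Such barcodes can hold more than 1 cell, and what they hold was not tested.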

How the results depend on the processing

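Each count and ratio was recomputed under other filters, clusterings, library sizes and sets of cells. The number of genes past 2-fold in D2-*mdx* over DBA was 5, and 3 with all cells summed and 3 with a minimum of 50 CPM. In D2-*mdx* over *mdx* it was 0, and 1 with no minimum on the level (*Igfbp2*) and 1 at 1.5-fold. The other 64 recomputed counts stayed within 1.5 times the first value. Of 480 recomputed log2 ratios 384 stayed within the counting interval of the value given, 95 left it, and 1 that was past 2-fold changed sign, *Igfbp7* in DBA over B10, which was -1.20 in myogenic cells and 1.73 with all cells, where pericyte-like cells made up 14.8% of DBA and 2.12% of B10. With all cells *Igfbp6* in *mdx* over B10 was 0.31 in place of 2.80, and *Igfbp5* in DBA over B10, under 2-fold, changed sign to 0.44 from -0.54. Ratios under 2-fold also changed sign for *Igf1* in D2-*mdx* over *mdx* (-0.14 in place of 0.21) and *Igfbp4* in the same comparison (-0.0028 in place of 0.30) with at least 500 genes and no upper limit, for *Igfbp2* in *mdx* over B10 (-1.14 in place of 0.91, MuSC-like cells alone), and under some settings for *Igfbp2* in DBA over B10 (-0.18) and *Igfbp7* in D2-*mdx* over *mdx* (-0.01). Leaving out the richest cell of each library changed *Igfbp6* in DBA over B10 from -1.61 to -0.82. For the *Dlk1*/*Hhip* cluster, 29 of 31 recomputed ratios stayed within their interval; with the 8 genes kept as clustering features *Igf1* in *mdx* over B10 was 0.72 and *Igfbp5* in D2-*mdx* over DBA was -0.09. Shares of cells with a UMI moved with the thinning depth in 84 of 96 cases. The alternatives without the *Dlk1*/*Hhip* cells, without the richest cell, and for that cluster were chosen after seeing the data. No paired analysis was possible because each strain was 1 library of pooled mice. A fit over the 2 pairs of model and control was not run. At 3 to 12 cells in the cycling progenitor-like class of the controls as cut here, levels in that class there are limited by the number of cells.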
